A study of Mus musculus with 34 samples.

Results

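The step from day 3 to day 7 after a spinal cord contusion was examined in wild-type mice, as the arrays titled day 7 WT set against the arrays titled day 3 WT. Every gene with a usable signal on at least 4 of the 34 arrays, of any group, was tested. The comparison used 8 of 34 arrays, 4 at day 7 and 4 at day 3, chosen by their titles alone. All mice were C57BL/6J, bred for more than 20 generations onto that strain, 8 to 12 weeks old, and the tissue was thoracic spinal cord after a moderate contusion. WT here means trkB.T1 wild type; the same step in trkB.T1 knockout (KO) mice, which lack the truncated form of the neurotrophin receptor made from Ntrk2, was measured on 9 further arrays, 4 at day 7 and 5 at day 3, and the labels give that genotype no driver or cell type. Labelled sham cord (4 WT arrays) and day 1 cord (5 WT arrays) were used only to place levels in time; the description codes of the sham arrays begin with Nav, and the labels do not settle whether these mice were operated. The titles call the arrays biological replicates. The labels do not say whether an array held 1 mouse or a pool, or how far from the lesion the tissue reached.

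A contusion crushes vessels, neurons and glia. Monocytes enter from blood in the first days, resident microglia and incoming cells divide, and chemokines such as Ccl2 guide the entry. Macrophages then take up myelin and cell debris, which fills their lysosomes with lipid, while astrocytes, fibroblasts and new vessels rebuild the tissue around the lesion. The arrays measure all these cells at once. In such whole-tissue RNA, fewer cells of a type and less RNA per cell cannot be told apart.

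Day 3 replicate 2 stood apart from its group. The counts of genes called, the 24 leading genes and the list counts are therefore also given without it, as are other values where leaving it out ended a call or moved a value by over 1.5 times. Its mean correlation with the other day 3 arrays was 0.961, against 0.98 to 0.983 for those arrays, and it was also the day 3 array least like the day 1 and day 7 WT arrays, at 0.959 against 0.972 to 0.973 for day 1 and 0.942 against 0.979 to 0.981 for day 7. Of the genes called higher at day 7, 997 of 1228 (81.2%) had this array as the lowest of the 4 day 3 arrays, and of those called lower, 898 of 1365 (65.8%) had it as the highest. The difference between 3′ and 5′ probe sets of actin, a sign of RNA integrity, was 1.93, 2.02, 1.99 and 1.45 (log2) on the day 7 arrays and 1.54, 1.39, 1.53 and 1.49 on the day 3 arrays, and its part in the results was not tested. Skeletal muscle genes, which mark tissue beside the cord, averaged 5.33, 4.61, 8.88 and 3.69 on the day 7 arrays and 7.30, 5.74, 6.30 and 8.43 on the day 3 arrays, with no gene of 13 called (1 at an unadjusted p under 0.05). Of the WT day 1 arrays, 2 of 5 (replicates 1 and 2) carry a source and time field that names another group, 1 day 7 and 1 sham. They correlated with the other day 1 arrays at 0.991 and 0.99. Their correlations were 0.961 and 0.965 with the WT day 7 arrays and 0.938 and 0.945 with the WT sham arrays. Both were kept by title. By title they enter only the day 1 means and the shared estimate of spread. Grouping them by source instead, which adds 1 of them to day 7, left 979 probe sets called between day 7 and day 3, and fitting the 8 arrays alone left 1488, against 4712 in the full fit. Grouped by source, 0 members of the microglia, antigen presentation, chemokine, reactive astrocyte, cholesterol and immediate early lists below were called, 1 lysosome and 5 phagocytic genes were higher, and 13 replication genes were lower. Neuronal genes were among the highest values on all 8 arrays (Snap25, a synaptic release protein, at 14.22 to 14.82). On KO arrays of both days 1 probe set of Ntrk2 read 2.83 throughout, against 9.66 to 9.92 on WT day 7 and 8.65 to 9.42 on WT day 3 arrays, while another read 10.03 to 10.16 on KO day 7 and 8.77 to 9.99 on KO day 3 arrays, against 9.34 to 9.62 and 8.86 to 9.46 in WT.

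Between day 3 and day 7 the largest rises were in Atp6v0d2, Mmp12 and Mcoln3, and the largest falls in Arg1, Hmox1 and the monocyte chemokines Ccl7 and Ccl2. This ranking covers called genes whose arrays did not overlap and whose higher group averaged at least log2 6. Differences of the 13 skeletal muscle genes, with 0 called, ran from -4.04 to 0.92. Of 11998 genes tested, 1228 (10.2%) were called higher at day 7 and 1365 (11.4%) lower, at a Benjamini-Hochberg adjusted p under 0.05 from limma over 24573 probe sets, of which 2122 (8.64%) were higher and 2590 (10.5%) lower. A change of at least 1.5-fold was met by 529 of the genes that rose and 542 of those that fell, and a change of at least 4-fold by 33 and 61. The median difference over all genes was 0.02 (log2). Without day 3 replicate 2, 786 genes (6.55%) were higher and 981 (8.18%) lower; 702 and 857 of these were the same genes as with it, and 0 of all called genes changed sign. The 4 day 7 arrays lay wholly above the 4 day 3 arrays for 1435 genes (12%) and wholly below for 1355 (11.3%).

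**Figure D1:**
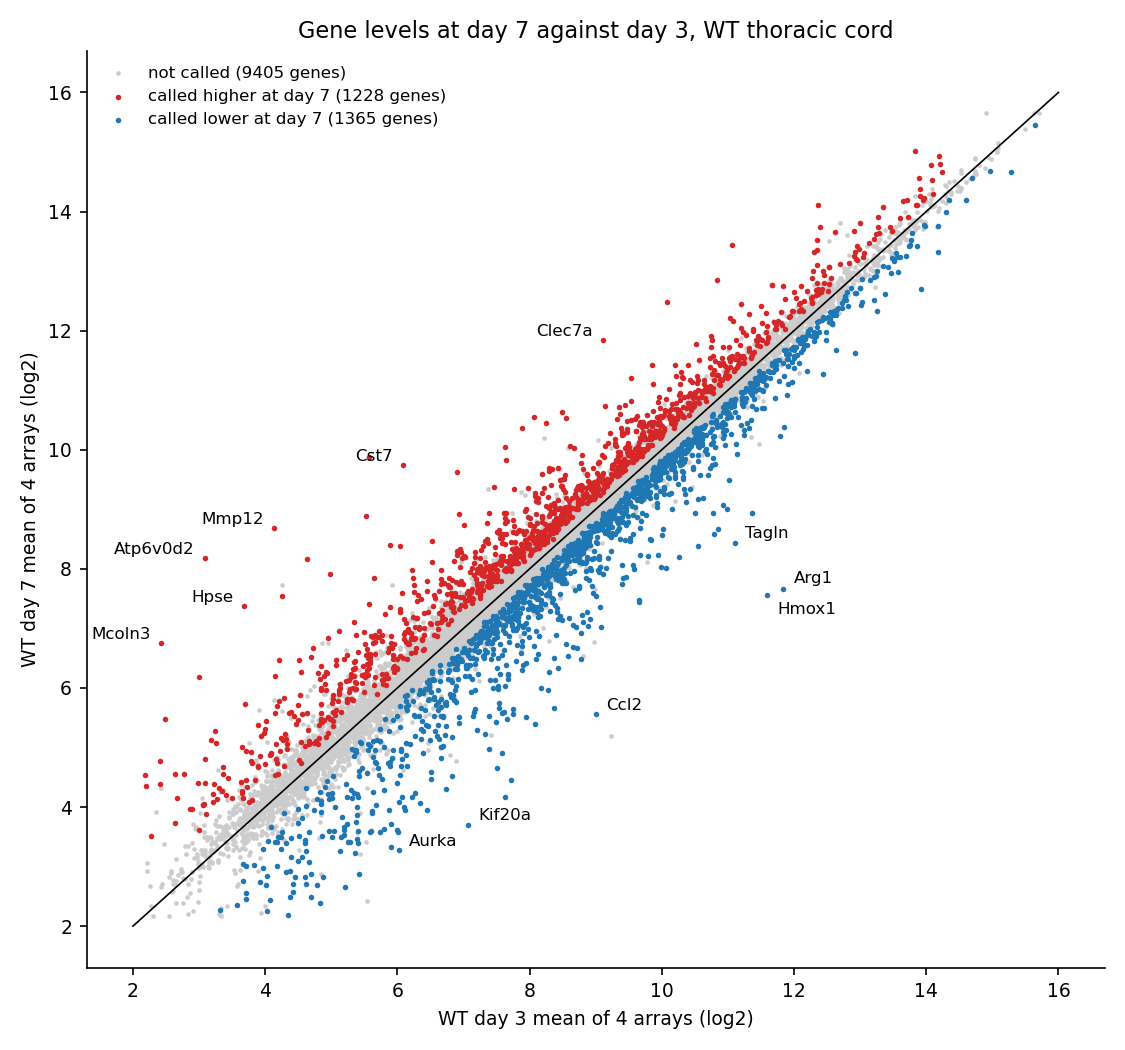
Mean level of each of 11998 genes on 4 WT day 7 arrays (vertical, log2) against 4 WT day 3 arrays (horizontal, log2), with the line of equal levels; red points are the 1228 genes called higher at day 7 and blue points the 1365 called lower. Arg1 and Hmox1 lie farthest below the line and Atp6v0d2, Mmp12 and Mcoln3 farthest above it among the labelled genes.

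Set against the other WT time points, 799 of the genes called higher (65.1%) had their highest mean of all at day 7, and 414 (33.7%) had it in sham cord, so that these were lower at day 3 than in sham. For all genes tested the same shares were 19.8% and 41.1%. At day 7 the genes called higher were above the sham mean in 810 cases and below it in 418. Among genes called lower, 560 (41%) peaked at day 1 and 735 (53.8%) at day 3, against 19.6% and 19.4% of all genes tested. At day 7 832 of those called lower were still above the sham mean while 533 were below it. Of all genes tested, 5361 were above the sham mean at day 7 and 6632 below it. These shares use the same day 3 and day 7 arrays as the calls and are given as a description.

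Atp6v0d2, which encodes the d2 subunit of the proton pump that acidifies lysosomes in macrophages and osteoclasts, gave the largest rise of the genes so ranked. It read 8.53, 7.68, 7.93 and 8.58 (log2) on the day 7 arrays and 3.01, 3.61, 2.87 and 2.86 on the day 3 arrays. All day 3 values were under 4, the level taken here as the lowest usable signal, so day 7 was at least 18.2-fold higher (fitted log2 difference 5.10 ± 0.35 SE, limma adjusted p = 3.52e-11). Mcoln3, an ion channel of endosomes and lysosomes, behaved likewise, at 6.77, 7.00, 6.48 and 6.77 on day 7 arrays and 2.31, 2.30, 2.80 and 2.31 on day 3 arrays, at least 6.75-fold higher (4.33 ± 0.17, adjusted p = 1.09e-16). Its day 3 values lay near the lowest value of the scale, 2.17, and no day 3 array came near a day 7 array.

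Mmp12, the macrophage elastase, read 10.01, 7.45, 7.91 and 9.39 on day 7 arrays and 4.16, 2.54, 5.91 and 3.93 on day 3 arrays, a difference of 4.56 ± 0.62 (adjusted p = 5.33e-06). Its arrays varied more within each day than those of Mcoln3, yet the lowest day 7 array was above the highest day 3 array. Hpse, the enzyme that cuts heparan sulfate, read 6.96, 7.44, 7.08 and 8.02 on day 7 arrays and 4.28, 2.23, 4.37 and 3.83 on day 3 arrays (3.70 ± 0.35). Cst7, an inhibitor of lysosomal cathepsins, read 9.78, 9.50, 10.11 and 9.60 on day 7 arrays and 6.72, 4.29, 6.66 and 6.69 on day 3 arrays (3.66 ± 0.34). The lowest of these day 3 values was in each case that of replicate 2, and without it the differences were 4.02 for Mmp12, 3.21 for Hpse and 3.06 for Cst7, all still called. Clec7a, the receptor dectin-1 for fungal glucans on myeloid cells, read 11.95, 11.60, 11.80 and 12.03 on day 7 arrays and 9.80, 7.13, 9.89 and 9.63 on day 3 arrays. Its difference of 2.74 ± 0.37 was 2.08 without replicate 2, since that array alone was more than 2 log2 units under the others.

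The other 6 of the 12 largest rises included secreted proteins, a membrane protein and a potassium channel subunit. The transcript 9630013A20Rik, which has no function assigned in the files, read 9.85, 9.86, 10.17 and 9.64 on day 7 arrays and 5.11, 6.31, 5.91 and 4.93 on day 3 arrays (4.31 ± 0.28, adjusted p = 1.09e-11), and its 3 tested probe sets were all called higher. Its WT means in sham and at day 1 were 6.67 and 6.29, so day 7 was above every earlier time. Kcne1l, an accessory subunit of voltage-gated potassium channels, rose by 3.53 ± 0.28, and Mia, a small secreted protein made by cartilage and melanoma cells, by 3.36 ± 0.49. Mia was 8.72, 9.20, 9.02 and 8.61 on day 7 arrays and 6.40, 3.14, 6.16 and 6.42 on day 3 arrays, with replicate 2 far under the rest. C1qtnf3, a secreted C1q-like protein, rose by 3.29 ± 0.62, Igsf1, an immunoglobulin-like membrane protein, by 2.93 ± 0.23, and Rassf10, a protein with a Ras-association domain, was at least 4.55-fold higher. Without day 3 replicate 2 all 12 remained called, with a smallest difference of 2.08 and a largest adjusted p of 0.00302.

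**Figure D2:**
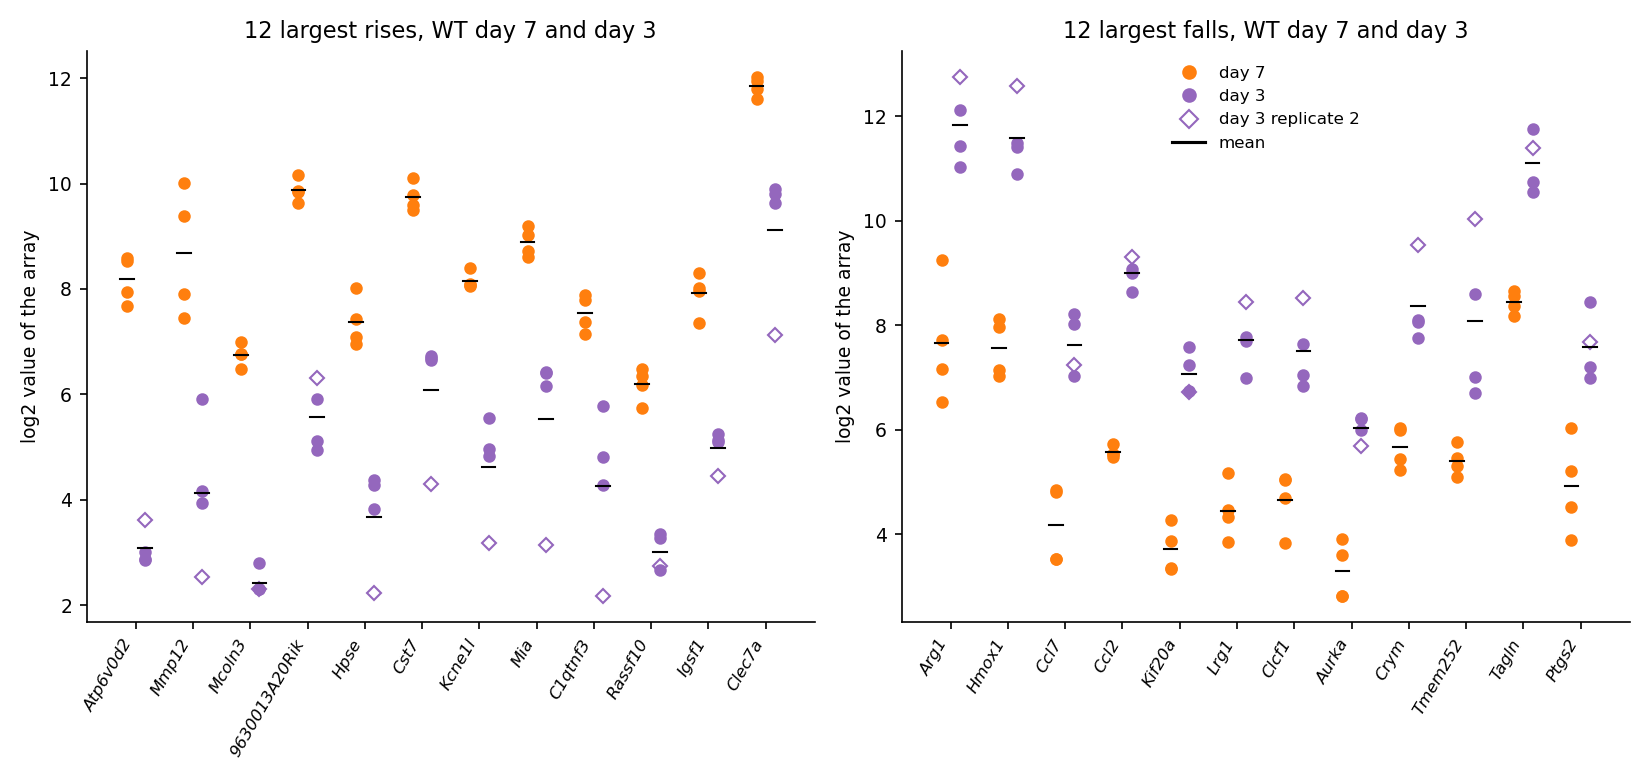
Log2 value on each array of the 12 genes with the largest rise (left) and the 12 with the largest fall (right), day 7 in orange to the left of day 3 in purple, with means as black bars and day 3 replicate 2 as an open diamond. In all 24 genes the 4 day 7 arrays and 4 day 3 arrays do not overlap, which was a condition of their choice.

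Most tested genes of lipid-laden, debris-clearing macrophages rose, on a list whose members were chosen with earlier results of these data known. Of 27 tested members of the phagocytic and foamy macrophage list, 18 were called higher and 0 lower (16 and 0 without day 3 replicate 2), with a median difference of 1.30, against 10.2% and 11.4% of all genes. The mean of the list was 10.90, 10.40, 10.61 and 10.97 on the day 7 arrays and 9.51, 8.5, 9.51 and 9.44 on the day 3 arrays. Beyond Atp6v0d2, Mmp12 and Clec7a, the fourth-largest change was in Cd5l, a macrophage protein that binds lipids and apoptotic debris. It read 9.54, 9.53, 9.70 and 9.73 on day 7 arrays and 7.87, 4.95, 7.41 and 7.39 on day 3 arrays (2.72 ± 0.38, and 2.07 without replicate 2). Apoe, the lipid carrier, was already at 12.65, 11.53, 12.52 and 12.73 on day 3 arrays and reached 14.03, 14.08, 14.15 and 14.19 on day 7 arrays (1.76 ± 0.16, adjusted p = 6.93e-09). Gpnmb, a glycoprotein of lipid-laden phagocytes, rose by 2.37 ± 0.50, Trem2, a lipid-sensing microglial receptor, by 1.98 ± 0.23, and Lpl, lipoprotein lipase, by 2.02 ± 0.34. Several members of the same list were not called: Cd36, a lipid scavenger receptor, differed by 1.13, Lgals3, a galectin of macrophages, by -0.13, and Msr1, another scavenger receptor, by -0.81. Spp1 had no single-gene probe set in the table used here.

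Most lysosome genes were higher as well. Of 25 tested members 19 were called higher and 0 lower (16 and 0 without day 3 replicate 2), and the median difference was 0.53. Man2b1, which trims mannose from glycoproteins, read 10.59, 10.42, 10.54 and 10.83 on day 7 arrays and 9.62, 8.93, 9.44 and 9.49 on day 3 arrays (1.23 ± 0.12, adjusted p = 2.79e-08). Hexa, a subunit of hexosaminidase, rose by 1.09 ± 0.19 and Ctsa, cathepsin A, by 1.08 ± 0.14. Ctsk, cathepsin K, rose by 1.14 ± 0.39 with all arrays, and its adjusted p was 0.143 without day 3 replicate 2. Ctsd, an aspartic protease, had the higher levels of the group, at 13.73, 13.73, 13.77 and 14.00 on day 7 arrays and 13.22, 12.52, 13.11 and 13.12 on day 3 arrays. Cathepsin L (Ctsl, 0.21) and Lamp2, a lysosomal membrane protein (0.19), did not pass the test.

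The promoters of Ctsa and Ctsd are shown because they are the lysosome genes with the largest rises whose window holds the CACGTG core of the E-box, the element that MiT/TFE factors are known to read in lysosomal genes. The sequences are RefSeq windows on GRCm38.p6, from 250 bases before to 50 after the annotated start, 5′ to 3′ on the gene's strand, with each CACGTG in capitals. The Ctsa window lies at chr2:164833523-164833822, plus strand, and the Ctsd window at chr7:142387778-142388077, minus strand.
Ctsa: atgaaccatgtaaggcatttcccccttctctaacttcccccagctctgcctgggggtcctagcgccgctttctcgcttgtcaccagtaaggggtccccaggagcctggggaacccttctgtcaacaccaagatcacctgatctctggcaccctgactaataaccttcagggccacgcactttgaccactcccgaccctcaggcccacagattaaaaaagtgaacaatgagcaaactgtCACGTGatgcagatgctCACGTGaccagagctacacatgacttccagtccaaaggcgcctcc
Ctsd: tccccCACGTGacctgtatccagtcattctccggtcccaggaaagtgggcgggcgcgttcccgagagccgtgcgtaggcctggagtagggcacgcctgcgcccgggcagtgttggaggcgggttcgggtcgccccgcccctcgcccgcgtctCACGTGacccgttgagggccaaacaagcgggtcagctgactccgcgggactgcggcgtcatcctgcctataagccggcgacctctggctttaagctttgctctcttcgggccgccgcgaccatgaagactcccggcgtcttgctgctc
Of the 19 lysosome genes called higher, 15 had a window in the table and 3 of them (20%) held CACGTG, against 11.7% of the tested genes with a window. CACGTG reads the same on both strands, and 3 genes are too few for more than a description.

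Genes of resting microglia were in part higher. Of 13 tested members of the homeostatic microglia list, 7 were called higher and 0 lower, with and without day 3 replicate 2, and the median difference was 0.72 (0.34 without it). The list mean was 9.34, 9.28, 9.31 and 9.41 on the day 7 arrays and 8.97, 7.65, 8.74 and 8.96 on the day 3 arrays. In WT sham and day 1 cord it was 7.45 and 7.25, so day 7 was above the sham level and not a return to it. Siglech, a sialic acid-binding lectin, differed by 1.28 ± 0.30, Gpr34, a lysophospholipid receptor, by 1.26 ± 0.27, Cx3cr1, the fractalkine receptor, by 1.23 ± 0.20, and P2ry13, a nucleotide receptor, by 1.19 ± 0.22. Without day 3 replicate 2 these differences were 0.84, 0.80, 0.87 and 0.94. P2ry12, the nucleotide receptor most used to mark resting microglia, read 8.74, 8.94, 8.67 and 8.72 on day 7 arrays and 8.56, 7.20, 8.16 and 8.85 on day 3 arrays and was not called (adjusted p = 0.22). Day 3 replicate 4 lay inside the day 7 range.

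The complement and Fc receptor list of 14 tested genes had 4 called higher and 1 lower (3 and 1 without day 3 replicate 2). Of all genes 10.2% were higher and 11.4% lower. The 3 chains of C1q, which tags debris and synapses for removal, all rose: C1qc by 1.18 ± 0.14, C1qa by 1.04 ± 0.12 and C1qb by 0.76 ± 0.13. C1qa read 13.66, 13.48, 13.68 and 13.81 on day 7 arrays and 12.74, 12.38, 12.63 and 12.72 on day 3 arrays. C5ar1, the receptor for the attractant C5a, fell by 1.07 ± 0.22. Among 13 antigen presentation genes 5 were higher and 0 lower, with and without that array, led by the co-stimulator Cd86 (1.02 ± 0.19), H2-DMa, which loads class II molecules (0.89 ± 0.21), and the class I heavy chain H2-K1 (0.85 ± 0.15). Psmb9, an immunoproteasome subunit, differed by 0.87 and was not called. Class II chains were not called, and Cd74, their invariant chain, differed by 0.22. In KO cord 0 of the 13 antigen presentation genes were called higher and 3 lower, against 18.3% and 15.7% of all genes. The genotype difference in the change called 0 of them. In WT cord 3 of 18 interferon-induced genes rose and 0 fell, against 10.2% and 11.4% of all genes. Without WT day 3 replicate 2 the counts were 2 and 0, against 6.55% and 8.18% of all genes. Cxcl10, an interferon-induced chemokine for T cells, read 7.12, 6.87, 7.61 and 8.05 on day 7 arrays and 6.07, 4.48, 5.88 and 5.86 on day 3 arrays (1.84 ± 0.45). Oasl2 rose by 1.52 ± 0.52 with all arrays (adjusted p of 0.14 without day 3 replicate 2), while Usp18 and Ifit1 differed by 1.42 and 1.40 without passing.

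Some genes of early inflammation and of wound macrophages fell. Arg1, arginase 1 of wound macrophages, had the largest fall of the genes so ranked, to 9.26, 6.53, 7.71 and 7.16 on day 7 arrays, against 11.43, 12.76, 12.12 and 11.04 on day 3 arrays (-4.17 ± 0.44, adjusted p = 1.16e-07). In sham cord its mean was 2.53, which every day 7 array exceeded. Hmox1, which breaks down heme, read 8.11, 7.02, 7.13 and 7.98 on day 7 arrays and 11.50, 12.58, 11.40 and 10.90 on day 3 arrays (-4.03 ± 0.34, adjusted p = 2.47e-09). The day 7 mean was lower by a factor of 16.4. Of 16 tested members of the monocyte and wound macrophage list 6 were called lower and 0 higher (5 and 0 without day 3 replicate 2). Thbs1, a matricellular thrombospondin, fell by 2.29 ± 0.49. Chil3, a chitinase-like protein of macrophages, fell by 2.18 ± 0.72 with overlapping arrays, and its adjusted p was 0.126 without day 3 replicate 2. Ccr2, the receptor for Ccl2 on monocytes, differed by -0.74 and was not called.

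The monocyte chemokines Ccl2 and Ccl7 fell together. Ccl2 read 5.53, 5.73, 5.53 and 5.48 on day 7 arrays and 9.0, 9.31, 9.08 and 8.63 on day 3 arrays, a fall of 3.44 ± 0.32 (adjusted p = 9.24e-09). Ccl7 read 4.81, 4.84, 3.52 and 3.52 on day 7 arrays and 8.02, 7.24, 8.22 and 7.04 on day 3 arrays (-3.46 ± 0.41). The Ccl7 mean in sham cord was 3.52, the value at which 2 of the day 7 arrays stood. In the chemokine and cytokine list of 17 genes, 5 were called lower and 1 higher (4 and 0 without day 3 replicate 2), with a median difference of -0.90 (-0.29 without that array). Cxcl1, a neutrophil attractant, fell by 1.91 ± 0.46, and Cxcl2, another, differed by -1.67 without passing (adjusted p = 0.118). Cxcl16, a membrane-bound chemokine and scavenger receptor, rose by 1.18 ± 0.34 with all arrays and had an adjusted p of 0.0647 without day 3 replicate 2. Il1b, interleukin 1 beta, differed by -1.08 and was not called.

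The rest of the 12 largest falls included a prostaglandin enzyme, a cytokine and a smooth muscle protein. Ptgs2, the inducible cyclooxygenase, read 5.22, 3.89, 4.51 and 6.04 on day 7 arrays and 7.21, 7.69, 8.44 and 6.99 on day 3 arrays (-2.67 ± 0.52). Clcf1, a cytokine of the interleukin 6 family, fell by 2.85 ± 0.30, and Lrg1, a secreted leucine-rich glycoprotein, by 3.28 ± 0.32. Tagln, the actin-binding transgelin of smooth muscle, read 8.56, 8.36, 8.18 and 8.66 on day 7 arrays and 10.74, 11.39, 11.76 and 10.55 on day 3 arrays (-2.67 ± 0.38). Crym, a thyroid hormone-binding crystallin, fell by 2.69 ± 0.30, and Tmem252, a membrane protein whose role is not described here, by 2.68 ± 0.42. Tmem252 was 10.04 on day 3 replicate 2, against 6.70 to 8.59 on the other day 3 arrays, and its difference without that array was -2.03. All 12 falls remained called without it, with a largest adjusted p of 0.00194.

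Genes of heme, iron and oxidative stress handling followed Hmox1 in part: of 16 tested, 6 were called lower and 1 higher (4 and 1 without day 3 replicate 2). For this and the next 2 lists, 11.4% of all genes were lower and 10.2% higher. Txnrd1, a thioredoxin reductase, fell by 0.82 ± 0.16 and Gclm, of glutathione synthesis, by 0.65 ± 0.10, while Nqo1, a quinone reductase, rose by 0.47 ± 0.14. Hp, haptoglobin, differed by -2.12 without passing, with 1 day 3 array at 10.08 and the other 3 at 5.33 to 6.18. Immediate early genes had 6 of 14 lower and 0 higher (5 and 0 without that array). Ier3 fell by 1.32 ± 0.21, the phosphatase Dusp1 by 0.99 ± 0.26 (-0.54 without that array), Myc by 0.96 ± 0.24 and Fos by 0.88 ± 0.18. Of 15 heat shock and unfolded protein genes 5 fell and 0 rose (7 and 0 without that array). The inducible chaperones Hspa1b and Hspa1a fell by 1.65 ± 0.43 and 1.40 ± 0.31; their sequences are near-identical, so their probe sets may share signal.

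Cell division genes had the highest share of members called among all 36 lists, whose members were chosen with earlier results of these data known. Of 43 tested G2/M and mitosis genes, 42 were lower and 0 higher (41 and 0 without day 3 replicate 2), with a median difference of -1.64. The list mean was 6.11, 5.54, 5.78 and 6.17 on the day 7 arrays and 7.87, 7.06, 7.71 and 7.67 on the day 3 arrays, with no overlap. In WT sham and day 1 cord it was 4.20 and 4.92, so the list peaked at day 3 and at day 7 was still above both. Here day 3 replicate 2 was the lowest of its group, so that leaving it out made the median difference larger, at -1.87. Kif20a, a kinesin of cytokinesis, read 3.86, 3.34, 3.36 and 4.27 on day 7 arrays and 7.58, 6.73, 6.75 and 7.24 on day 3 arrays (-3.37 ± 0.23, adjusted p = 2.32e-11). Aurka, the centrosomal Aurora A kinase, read 3.61, 2.82, 2.81 and 3.90 on day 7 arrays and 6.22, 5.68, 6.20 and 5.99 on day 3 arrays. It was at least 4.06-fold lower at day 7, since all day 7 arrays were under 4 (adjusted p = 2.31e-09). Ttk, a spindle checkpoint kinase, and Tpx2, which activates Aurora A on the spindle, were also under 4 on every day 7 array, with fitted differences of -2.55 ± 0.23 and -2.37 ± 0.24. Mki67, the proliferation antigen Ki-67, was still at 8.72, 8.04, 8.87 and 9.04 on day 7 arrays, against 10.27, 9.56, 10.16 and 10.08 on day 3 arrays, and its adjusted p was 0.0423 with all arrays and 0.0508 without replicate 2. The gene of this list not called was Pttg1, securin (-0.02).

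DNA replication and G1/S genes fell too: 26 of 28 were lower and 0 higher, with and without day 3 replicate 2, with a median of -0.98. Tk1, thymidine kinase, read 3.98, 2.64, 2.92 and 4.75 on day 7 arrays and 6.29, 6.05, 5.87 and 5.82 on day 3 arrays (-2.43 ± 0.31). Cdc6, which loads the replicative helicase, differed by -2.01 ± 0.30 and Pole, the catalytic subunit of DNA polymerase epsilon, by -2.0 ± 0.26, each with all day 7 arrays under 4. Uhrf1, which maintains DNA methylation behind the fork, fell by 1.87 ± 0.32. Mcm5, a subunit of the helicase, read 8.58, 7.91, 8.17 and 8.27 on day 7 arrays and 9.83, 9.63, 9.75 and 9.45 on day 3 arrays (-1.43 ± 0.23). Rfc3 and E2f1 were not called, at -0.34 and -0.08. In sham and at day 1 the list averaged 5.76 and 7.29, and the mitotic list stood at 4.92 on that day.

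Promoters of many division genes are known to carry elements of their phase of the cycle, and a pair from each list is shown. Aurka and Ttk are among the G2/M genes with the largest falls and their windows hold both TTTGAA, the cell cycle homology region, and CCAAT, the site of NF-Y; both elements are in capitals, on either strand. The RefSeq windows on GRCm38.p6 lie at chr2:172370521-172370820, minus strand for Aurka and chr9:83834439-83834738, plus strand for Ttk.
Aurka: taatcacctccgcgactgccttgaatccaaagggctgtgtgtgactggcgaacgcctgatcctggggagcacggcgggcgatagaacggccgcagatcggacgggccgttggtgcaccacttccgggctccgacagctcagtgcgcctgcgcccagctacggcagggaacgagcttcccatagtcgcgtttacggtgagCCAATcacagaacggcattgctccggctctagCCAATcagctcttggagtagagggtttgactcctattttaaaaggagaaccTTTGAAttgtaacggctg
Ttk: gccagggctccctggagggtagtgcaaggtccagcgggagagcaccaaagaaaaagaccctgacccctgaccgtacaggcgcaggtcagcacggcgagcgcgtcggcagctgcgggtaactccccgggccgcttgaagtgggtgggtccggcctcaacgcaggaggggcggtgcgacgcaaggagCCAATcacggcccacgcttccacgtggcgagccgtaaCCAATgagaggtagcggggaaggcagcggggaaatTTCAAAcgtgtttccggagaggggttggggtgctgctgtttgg
Cdc6 and Mcm5 are the replication genes with the largest falls whose window holds TTTGGCG or TTTCCCG, cores of the E2F site, in capitals on either strand. They lie at chr11:98907901-98908200, plus strand for Cdc6 and chr8:75109259-75109558, plus strand for Mcm5.
Cdc6: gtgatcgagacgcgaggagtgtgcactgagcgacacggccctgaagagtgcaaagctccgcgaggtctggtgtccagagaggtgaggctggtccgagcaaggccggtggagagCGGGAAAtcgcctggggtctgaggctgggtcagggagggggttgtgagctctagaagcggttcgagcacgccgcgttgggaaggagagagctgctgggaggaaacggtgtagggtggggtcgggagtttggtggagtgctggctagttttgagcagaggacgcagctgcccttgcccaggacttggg
Mcm5: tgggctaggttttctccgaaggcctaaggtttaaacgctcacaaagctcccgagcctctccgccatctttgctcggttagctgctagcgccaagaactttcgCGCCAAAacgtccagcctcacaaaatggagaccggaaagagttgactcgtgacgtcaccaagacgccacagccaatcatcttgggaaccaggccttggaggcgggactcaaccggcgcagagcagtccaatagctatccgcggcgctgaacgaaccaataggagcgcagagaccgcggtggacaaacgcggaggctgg
Of the 42 G2/M genes called lower, 35 had a window, and 27 of these (77.1%) held TTTGAA, 28 (80.0%) CCAAT and 24 (68.6%) both. Among all tested genes with a window the shares were 13.9%, 42.8% and 5.51%. Of 26 replication genes called lower, 20 had a window, and 10 (50%) held an E2F core, against 9.10% of tested genes, while 2 (10%) held TTTGAA. A match says only that these letters lie in the window.

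**Figure D3:**
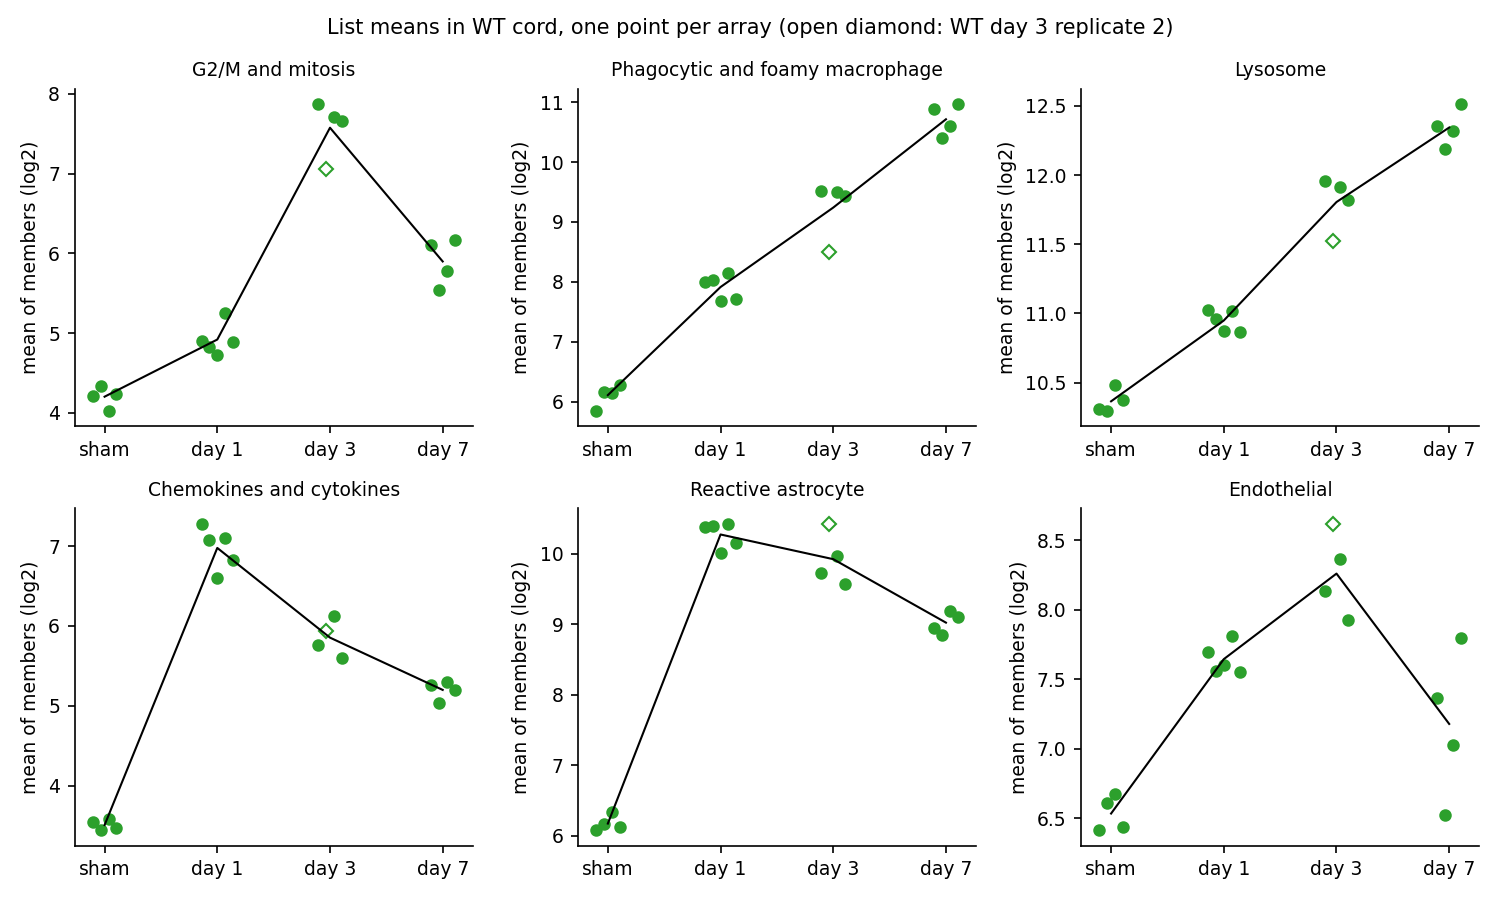
Mean log2 value over the tested members of 6 lists on each WT array, in sham cord and at day 1, day 3 and day 7, with the line through group means and day 3 replicate 2 as an open diamond. The mitosis list peaks at day 3 (7.58) and is at 5.90 at day 7, while the phagocytic list is highest at day 7 (10.72).

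Some genes of reactive astrocytes fell, and some genes of resting astrocytes rose. Of 20 reactive astrocyte genes, 10 were called lower and 0 higher (7 and 0 without day 3 replicate 2), with a median of -0.73. Lcn2, lipocalin 2, which neutrophils also make, read 8.22, 8.77, 10.27 and 8.5 on day 7 arrays and 11.26, 12.79, 10.83 and 10.58 on day 3 arrays (-2.42 ± 0.57). Nes, nestin, fell by 2.18 ± 0.35, Timp1, an inhibitor of metalloproteinases, by 2.16 ± 0.26, and Tgm1, a transglutaminase, by 2.10 ± 0.26. Gfap, the intermediate filament that defines reactive astrocytes, did not follow: it read 13.51, 13.60, 13.63 and 13.44 on day 7 arrays and 13.52, 12.73, 13.49 and 13.49 on day 3 arrays and was not called (adjusted p = 0.242). Apart from replicate 2, day 3 and day 7 arrays of Gfap overlapped, and both were above the sham mean of 12.01.

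Of 20 homeostatic astrocyte genes 8 were higher and 1 lower (5 and 1 without day 3 replicate 2), with a median of 0.41 (0.16 without it). Ntsr2, a neurotensin receptor of astrocytes, read 11.14, 11.37, 11.14 and 11.15 on day 7 arrays and 9.84, 8.53, 9.78 and 9.98 on day 3 arrays (1.67 ± 0.26), which brought it to its sham mean of 11.16. Agt, angiotensinogen, rose by 1.37 ± 0.19, Slc6a11, a GABA transporter, by 0.85 ± 0.25 and Mlc1, a membrane protein of astrocyte end-feet, by 0.82 ± 0.14. Aldh1l1, a folate enzyme, fell by 0.66 ± 0.13, and Slc6a11 was not called without replicate 2 (adjusted p = 0.114).

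Most endothelial genes were lower at day 7. Of 19 tested, 14 were lower and 1 higher (11 and 0 without day 3 replicate 2), with a median of -1.17. The list mean was 7.36, 6.52, 7.03 and 7.80 on the day 7 arrays and 8.13, 8.62, 8.36 and 7.92 on the day 3 arrays. Vwf, von Willebrand factor, read 7.90, 6.40, 6.73 and 8.86 on day 7 arrays and 9.30, 9.85, 9.99 and 9.48 on day 3 arrays (-2.18 ± 0.51). Pecam1, an adhesion molecule of endothelium and leukocytes, was under 4 on all day 7 arrays, against 5.2, 6.96, 5.26 and 4.26 on day 3 arrays (fitted -2.54 ± 0.46). Cdh5, the cadherin of endothelial junctions, fell by 2.01 ± 0.44 with overlapping arrays and Emcn, endomucin, by 1.86 ± 0.30. The gene called higher was Aplnr, the apelin receptor, at 11.06, 10.60, 10.60 and 10.65 on day 7 arrays and 9.79, 6.69, 10.07 and 10.02 on day 3 arrays, with an adjusted p of 0.0285 that was 0.214 without replicate 2.

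Of 10 pericyte and smooth muscle genes 4 fell and 0 rose (3 and 0 without day 3 replicate 2), against 11.4% and 10.2% of all genes. After Tagln the largest changes were in Acta2, smooth muscle actin (-1.15 ± 0.37), Abcc9, a subunit of potassium channels (-1.11 ± 0.29), and Kcnj8, its pore (-0.65 ± 0.21, with an adjusted p of 0.147 without that array). Pdgfrb, the growth factor receptor that marks pericytes, differed by -0.42 and was not called. Acta2 on day 7 replicate 4 was 10.24, inside the day 3 range, where the other day 7 arrays were 8.15 to 8.85.

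The share of collagen and fibroblast genes called higher was near that of all genes. In the fibroblast and collagen list of 24 genes, 2 were called higher and 0 lower, against 10.2% and 11.4% of all genes (1 and 0 without day 3 replicate 2), with a median of 0.48. Col1a1, the main chain of type I collagen, read 10.30, 9.03, 10.67 and 10.77 on day 7 arrays and 8.65, 7.00, 9.18 and 8.02 on day 3 arrays, and its difference of 1.98 ± 0.84 missed the threshold (adjusted p = 0.0966). Fap, a fibroblast protease, rose by 1.96 ± 0.58 (adjusted p = 0.0165, and 0.0585 without replicate 2), while Postn, periostin, and Col8a1 differed by 1.44 and 1.21 without passing. The list mean on day 7 replicate 2 was 8.63, under every day 3 array, and on the other day 7 arrays 9.96 to 10.73, so day 7 arrays spread more widely than the difference between days. Of 15 proteoglycan, tenascin and TGF-beta genes, 3 rose and 3 fell (3 and 4 without day 3 replicate 2). Tnc, tenascin C, fell by 1.57 ± 0.27 and Tgfbi, a TGF-beta-induced matrix protein, by 1.47 ± 0.36, whereas Ccn2, a matricellular growth factor, differed by -1.38 without passing. Among 22 matrix proteases and their inhibitors 4 were higher and 6 lower (3 and 3 without that array). Plau, the urokinase, rose by 1.57 ± 0.33 beside Mmp12, and Mmp13, a collagenase, differed by 3.48 ± 1.34 without passing (adjusted p = 0.0668), on day 3 arrays that ran from 2.31 to 6.74.

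In the oligodendrocyte lineage, 3 precursor and 3 myelin genes rose, where 10.2% of all genes did. Of 12 precursor and early lineage genes 3 were higher and 0 lower (3 and 1 without day 3 replicate 2). Bmp4, a growth factor made by newly committed oligodendrocytes, read 6.53, 6.35, 6.60 and 6.58 on day 7 arrays and 4.87, 3.72, 5.52 and 4.64 on day 3 arrays (1.83 ± 0.33). Enpp6, a choline phosphodiesterase of newly forming oligodendrocytes, read 9.81, 9.88, 9.68 and 9.17 on day 7 arrays and 8.45, 7.75, 8.66 and 8.32 on day 3 arrays (1.35 ± 0.16), and Lhfpl3 rose by 0.60 ± 0.15. Gpr17, a receptor of committed precursors, was 2.58 on day 3 replicate 2 and 8.65 to 9.21 on the other day 3 arrays, against 8.93 to 9.62 on day 7 arrays, and was not called. Of 16 myelin genes 3 rose and 1 fell (3 and 0 without that array): Sirt2, a deacetylase of the myelin sheath, by 0.75 ± 0.09, Tspan2, a tetraspanin, by 0.49 ± 0.12, and Cnp, a phosphodiesterase of myelin, by 0.45 ± 0.07. Ugt8a, which makes galactolipids, differed by 0.80 without passing.

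Of 19 cholesterol synthesis and uptake genes tested, 10 were lower and 0 higher (11 and 0 without day 3 replicate 2), with a median of -0.40, and all 19 differences were negative. Sc5d, a late sterol enzyme, read 9.74, 9.87, 9.40 and 9.47 on day 7 arrays and 10.21, 10.28, 10.37 and 10.45 on day 3 arrays (-0.71 ± 0.10). Fdps, of the isoprenoid branch, fell by 0.68 ± 0.14, Msmo1 by 0.60 ± 0.10 and Ebp by 0.58 ± 0.09. For Sc5d the 4 day 7 arrays lay below the 4 day 3 arrays, and both days lay below its sham mean of 10.93.

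None of 21 pan-neuronal genes and none of 16 transmitter genes was called in either direction (0 and 0), with medians of 0.17 and 0.23 (0.08 and 0.09 without day 3 replicate 2); by limma's unadjusted p under 0.05, 1 pan-neuronal and 2 transmitter genes were higher and 0 and 0 lower. In KO cord 10 and 13 of them were called higher, where 18.3% of all genes were. On KO day 3 replicates 3 and 4 the pan-neuronal mean was 10.35 and 10.49 and the transmitter mean 8.38 and 8.74. The other KO day 3 arrays had 11.10 to 11.39 and 9.69 to 9.86. KO day 7 arrays had 11.35 to 11.39 and 9.95 to 10.02. The genotype difference in the change called 0 genes of either list. In WT the pan-neuronal mean was 11.28, 11.40, 11.27 and 11.23 on the day 7 arrays and 11.17, 10.94, 11.11 and 11.32 on the day 3 arrays. These overlapped, and the WT sham mean was 12.03. The largest differences were in Nefh, the heavy neurofilament chain (0.39, adjusted p = 0.106), and Scn1a, a sodium channel (0.37). Of 6 tested cilia genes of ependymal cells 4 were higher and 0 lower (2 and 0 without day 3 replicate 2). Ccdc153, a ciliary protein, was under 4 on all day 3 arrays and at 4.39, 4.73, 4.43 and 4.04 on day 7 arrays (fitted 1.41 ± 0.27), and Ak7, a ciliary adenylate kinase, rose by 1.26 ± 0.26.

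**Figure D4:**
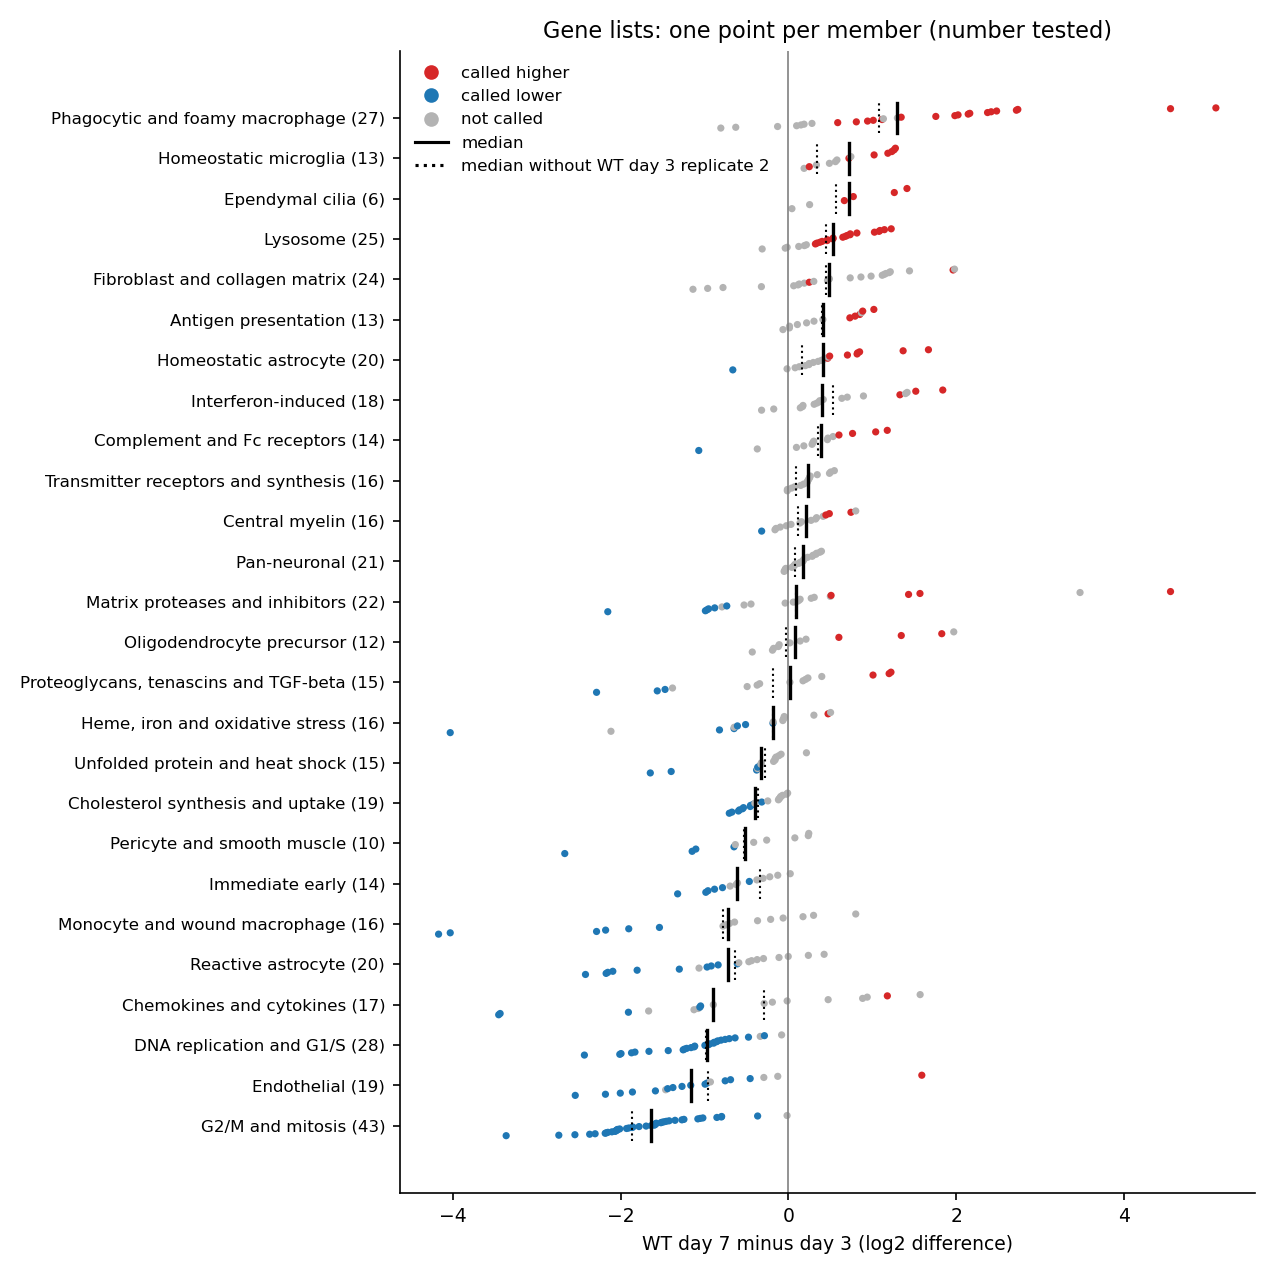
WT day 7 minus day 3 difference (log2) of every tested member of the lists described, 1 point per gene, red where called higher, blue where called lower and grey otherwise, with the median as a solid bar and the median without day 3 replicate 2 as a dotted bar. The phagocytic list has its median at 1.30 and the G2/M list at -1.64.

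The same step in KO mice shares no array with the WT comparison. Both use 1 estimate of spread, so their calls are not fully independent. In KO cord 2191 genes (18.3%) were higher and 1879 (15.7%) lower, from 3969 (16.2%) and 3494 (14.2%) probe sets. Of the genes called higher in WT, 747 were called higher in KO, which is 34.1% of the KO list and 60.8% of the WT list, and 2 were called lower. Of the genes called lower in WT, 1042 were called lower in KO, 55.5% of the KO list and 76.3% of the WT list, and 0 were called higher. Skeletal muscle genes averaged 10.43 and 12.99 on KO day 3 replicates 1 and 3. The other KO day 3 arrays averaged 4.05 to 4.69 and the KO day 7 arrays 3.67 to 4.76. The actin difference between 3′ and 5′ probe sets was 1.882 to 1.985 on KO day 7 arrays and 1.22 to 1.81 on KO day 3 arrays. The part of either in the KO calls, or in what the genotypes shared, was not tested. The 4 KO day 7 arrays correlated with one another at 0.995 to 0.996, against 0.987 to 0.991 for the WT day 7 arrays, and KO day 3 replicate 3 at 0.957 with its group; KO probe sets called numbered 556 with the day 7 arrays averaged to a single sample and 4888 without that day 3 array, against 7463 with all.

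The KO day 7 minus day 3 difference had the WT sign and passed the test for 11 of the 12 largest rises and 12 of the 12 largest falls. The exception was C1qtnf3, at 0.66 in KO (adjusted p = 0.416) and 3.29 in WT. Atp6v0d2 differed by 3.62 ± 0.34 in KO and 5.10 ± 0.35 in WT, Arg1 by -3.28 in KO and -4.17 in WT, and Ccl2 by -3.76 in KO and -3.44 in WT. The 24 genes were chosen for their size in WT, so their sizes are not compared beyond the test of the difference itself. That test, of the KO change minus the WT change, called 2 probe sets of 24573 (0.00814%) and 1 gene of 11998 (0.00833%), both lower in KO; 1823 probe sets had an unadjusted p under 0.05. The gene was Mcoln3, with a rise of 2.97 in KO and 4.33 in WT and a difference of -1.36 ± 0.24 (adjusted p = 0.0428). Its day 3 means, 2.43 in WT and 2.87 in KO, were under log2 4, so the size of that difference is uncertain. Myo1f, an unconventional myosin of leukocytes, was called by 1 of its probe sets, with a change of -0.41 in KO and 1.27 in WT, and its other probe sets were not. The next genes by p were Itga4, an integrin of leukocytes, Cdk2, a cell cycle kinase, Slc25a45 and Cd37, none called (adjusted p = 0.295). Neither call was made without WT day 3 replicate 2.

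**Figure D5:**
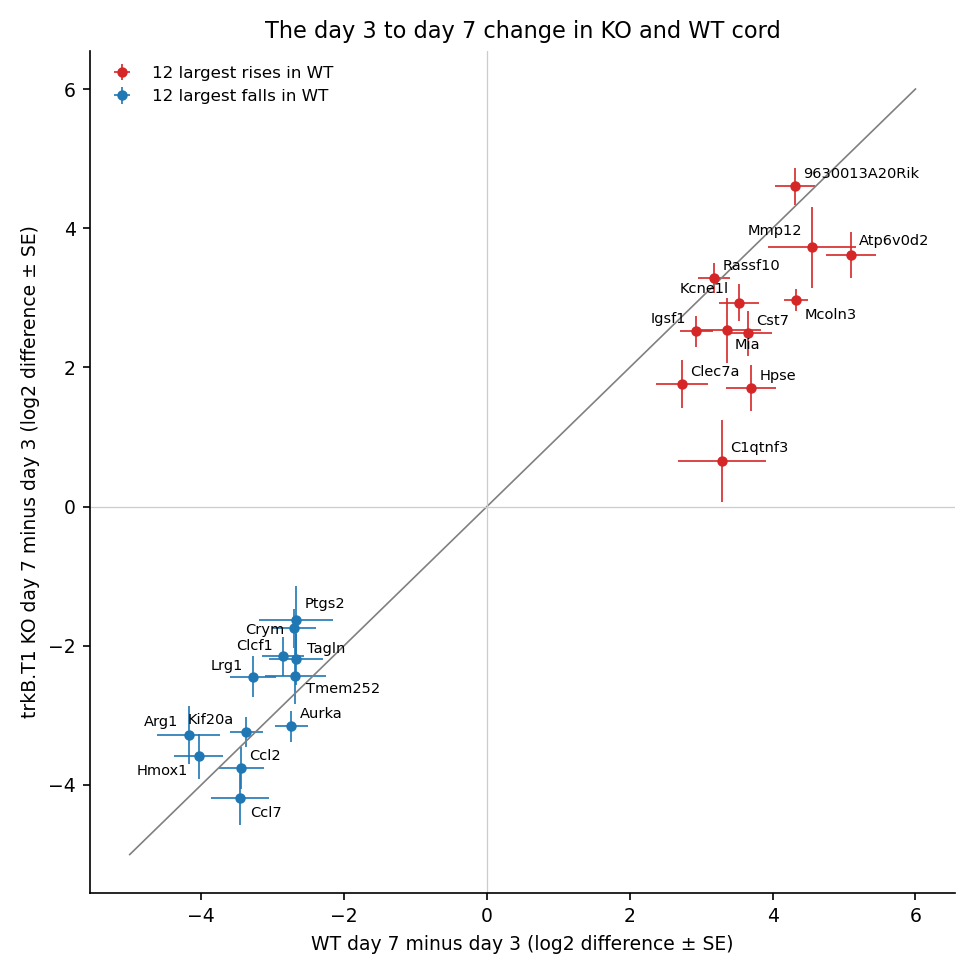
Day 7 minus day 3 difference in KO (vertical, log2, ± SE) against WT (horizontal, log2, ± SE) for the 12 largest rises (red) and 12 largest falls (blue) in WT, with the line of equal change. All 24 points have the same sign in both genotypes, and C1qtnf3 lies closest to 0 in KO, at 0.66.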

How the data were processed

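Total RNA of mouse thoracic spinal cord was extracted with Trizol, and 1 µg was made into biotinylated cRNA for Affymetrix arrays, per the labels' protocols. The deposited values are log2 expression values of 45101 probe sets on 34 arrays, made by the authors with GCRMA per the submitters' processing notes (version not stated). GCRMA compresses low signals: 33.7% of values lay within 0.1 of the lowest, 2.17, so a difference against such values is uncertain in size. Array medians were 4.14 to 4.39, and 0 pairs of arrays held identical values. The number of arrays limits the precision, and where samples did not come from separate animals the p-values measure technical spread.

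Probe sets were named through the platform's gene table, which gives 34945 probe sets 1 gene, 932 several and 9160 none, besides 64 controls; 34741 of the first were matched by Entrez number to RefSeq symbols (GRCm38.p6). Probe sets at log2 4 or above on at least 4 of the 34 arrays, of any group, were tested (24573). A tested gene could thus be under log2 4 on all 8 compared arrays. This held for 1 member each of the G2/M, chemokine, matrix protease, regeneration-associated, immediate early and Hox lists. A gene was read from its tested single-gene probe set with the highest mean (11998 genes). limma 3.58.1 in R 4.3.3 was fitted to the 8 group means over all 34 arrays, which share 1 estimate of spread, with Benjamini-Hochberg adjustment over all tested probe sets at 0.05; the procedure was tested on simulated data. Errors are the SE of the fitted difference. Groups come from the titles.

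The members of the 36 gene lists were chosen with earlier results of these data known. Named genes are the 12 largest rises and 12 largest falls among called genes whose arrays did not overlap and whose higher group averaged at least log2 6, the 4 largest differences of each list described, and the 5 smallest p of the genotype difference; other list members are named as examples with their values known. Against a group under log2 4 on every array the fold is a bound, the brighter mean over log2 4. Promoter windows are RefSeq's, 250 bases before to 50 after the start, searched on both strands. Alternatives were another filter, quantile or median scaling, array weights, a trended prior, the compared arrays alone, the replicate number as a block, other handling of the conflicting labels, the mean of all probe sets and each array left out. WT day 7 and day 3 arrays of one number did not deviate together (r = -0.03, -0.08, -0.03 and -0.19), so the numbers were not used as pairs.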

Additional observations from a re-analysis of the deposited data

Results flagged for a closer look

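Of 80 groups of 4 or 5 arrays examined, 8 held an array far from the rest by Dixon's criterion, where chance gives about 1 in 20, and 5 of the 8 were WT day 3 replicate 2. On that array the phagocytic macrophage list averaged 8.5 (log2), against 9.44 to 9.51 on the other day 3 arrays, and the antigen presentation list 6.99, against 7.70 to 7.82. Cst7 was 4.29 there, against 6.66 to 6.72, Mia 3.14, against 6.16 to 6.42, and Clec7a 7.13, against 9.63 to 9.89. The other 3 were single arrays. Mcoln3 on WT day 3 replicate 3 was 2.80, against 2.30 to 2.31. Kcne1l on WT day 7 replicate 2 was 8.40, against 8.05 to 8.10. The heme and oxidative stress list on WT day 7 replicate 2 averaged 9.63, against 9.80 to 9.83. The groups examined share arrays, and Clec7a is a member of the phagocytic list, so these 8 are not separate trials.

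The day 7 minus day 3 change differed between genotypes, by limma's test of that difference, for 2 probe sets. Mcoln3 rose by 2.97 in KO and 4.33 in WT, a difference of -1.36. Its day 3 means were under log2 4 in both genotypes, so that size is uncertain. 1 probe set of Myo1f changed by -0.41 in KO and 1.27 in WT, a difference of -1.67.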

How the results depend on the processing

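Of the alternatives run, the number of probe sets called between WT day 7 and day 3 moved most with the arrays entered and their grouping. With only the arrays compared, 1488 were called (996 at 1.5-fold or more), 3453 in KO and 0 for the genotype difference, with 11 lysosome, 1 microglia, 3 homeostatic astrocyte, 2 protease, 4 endothelial, 4 cholesterol, 3 immediate early, 2 heme and 1 heat shock gene. With the 2 conflicting arrays grouped by source and time, the counts were 979 (596), 4572 in KO and 0, with 13 replication, 1 wound macrophage, 5 phagocytic, 1 lysosome, 4 homeostatic astrocyte, 1 protease, 3 heme and 1 heat shock gene, and 0 for microglia, antigen presentation, chemokines, reactive astrocytes, cholesterol and immediate early genes. Without WT day 3 replicate 2 and WT day 7 replicate 4, chosen after seeing the data, 2984 were called and 0 for the genotype difference, with 12 lysosome, 3 chemokine, 6 reactive astrocyte, 5 homeostatic astrocyte and 3 immediate early genes, and Slc6a5, not called, turned to -0.005. Averaging the 4 KO day 7 arrays, also chosen later, gave 556 in KO and 0. Array weights gave 9 heat shock genes. The genotype difference was also 0 at a filter of log2 6, with the trended prior, with array weights and with the conflicting arrays left out. The replicate block gave 4710 (2017), 8498 in KO and 0. Leaving out each array in turn gave 3174 to 5502 in WT, 1339 (without WT day 3 replicate 2) to 2582 at 1.5-fold, 4888 to 9040 in KO, 0 to 3 for the genotype difference, 5 to 11 homeostatic astrocyte and 3 to 7 protease genes (3 without WT day 7 replicate 2 or WT day 3 replicate 2). The cause of these shifts was not tested. Of 2159 values over 114 named genes, 1984 kept direction and side of the threshold, 147 lost the call, 27 gained it and 1 reversed. For the 24 leading genes 11 of 456 changed. Of 320 list counts 288 stayed within 1.5 times. Signals near the lowest value limit the size of a fold.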

Other observations

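In the lists not described above, the shares called are to be read against the 10.2% of all genes called higher and 11.4% called lower. Of 11 neutrophil genes 1 was higher and 2 lower at day 7 (the same counts without day 3 replicate 2): Il1r2, a decoy receptor for interleukin 1, differed by -2.19 and Lcn2 by -2.42, while the granule genes Mpo and Camp differed by 0.91 each and were not called. Of 18 ribosome biogenesis genes 1 was higher and 5 lower (0 and 3 without that array), of 16 glycolysis and hypoxia genes 1 and 3 (0 and 2), and of 14 regeneration-associated genes 1 and 1 (1 and 0). By limma 0 genes were called among 14 Hox, 7 Schwann cell, 3 motor neuron, 2 erythroid and 1 lymphocyte gene tested, of which 0, 0, 1, 0 and 0 had an unadjusted p under 0.05. In KO cord 7 of the 14 Hox genes were called higher, where 18.3% of all genes were. The KO day 3 Hox mean was 6.721 and 7.085 on replicates 3 and 4 and 7.935 to 8.006 on the other arrays. On KO day 7 arrays it was 8.032 to 8.198. The genotype difference in the change called 0 Hox genes.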
